A study of Homo sapiens with 10 samples.

Results

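The interferon-stimulated genes described here are 45 genes known to be induced by type I or type II interferons, taken as a list of gene symbols and matched to the count table through their Ensembl identifiers. All 45 had a row among the 61587 genes of the table, and 42 of them were among the 19006 genes that reached the minimum of 200 counts over the 10 samples and were tested. The other 3, MX2, CXCL10 and CXCL11, stayed under that minimum. Bulk RNA-seq of poly-A RNA was performed on RPTEC/TERT1 cells, a human renal proximal tubular epithelial line immortalised with telomerase, in 5 samples exposed to 10 Gy from a caesium gamma source and in 5 control samples that were taken to the irradiator without exposure. Both groups were grown and fed in the same way, RNA was collected 7 days after exposure, and replicate numbers 1 to 5 pair the samples. Irradiation was used in the study to induce senescence in tubular cells. No sample was treated with an interferon, so that the name of the gene set rests on what its members are known for, and a single cell line is the only system.

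Type I and type II interferons bind cell surface receptors whose JAK kinases phosphorylate STAT proteins. The ISGF3 complex, which holds STAT2 and IRF9, binds the interferon-stimulated response element (ISRE) in promoters, while dimers of STAT proteins bind gamma-activated sites (GAS). The induced genes encode sensors of foreign RNA, enzymes that degrade or modify RNA and proteins, membrane proteins that block viral entry or release, and chemokines, and some of them feed back on the pathway itself.

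Total counts per sample lay between 66269311 and 131555873. Expression is given in CPM, counts scaled by the TMM-normalised library total, either for each sample or as mean ± SD with n = 5 per group. Log2 fold changes are irradiated over control and come with a standard error (SE) and a p-value from the quasi-likelihood test of edgeR, adjusted over all genes tested by the Benjamini-Hochberg method. Control replicate 3 stood apart among the controls. It was the highest control sample for 23 of the 42 tested members, including 7 of the 9 that fell. Nothing in the labels shows separate cultures behind the replicate numbers. The p-values therefore measure only the spread between these samples that remains once differences between replicate numbers are fitted. In bulk RNA a change in the number of cells of a kind and a change in RNA per cell cannot be told apart.

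Markers were read as summed CPM. The 5 epithelial markers summed to between 2244 and 2752 CPM in control and between 2306 and 3548 in irradiated samples. The 8 markers of kidney tubule summed to between 1106 and 1253 and between 1066 and 1367, with the proximal tubule receptor gene LRP2 near 0 (17 counts in all). Among the tubule markers CDH16, AQP1 and PAX2 fell (log2 fold change -0.78, -0.61 and -0.27, adjusted p = 0.000143, 0.00635 and 0.0101). The other tested tubule markers were not called. Among the epithelial markers KRT19 rose (0.69, adjusted p = 0.00671), CDH1 fell (-0.18, adjusted p = 0.0346) and the others were not called. Leukocyte markers summed to between 0.630 and 0.930 CPM in control and between 1.91 and 2.60 in irradiated samples. Of those 7 genes, the T cell gene CD3E and the B cell gene MS4A1 had 3 counts each over all samples. PTPRC, which marks all leukocytes, was not called (0.295 ± 0.102 and 0.353 ± 0.121 CPM), and ITGAM and CD14 rose (log2 fold change 4.71 and 1.09). CD68 and CSF1R were under the count minimum, with 27 and 136 counts over all samples. Mean CPM in control and irradiated samples was 0.0385 and 0.0152 for CD68 and 0.127 and 0.151 for CSF1R. The values of CD68 are uncertain, since 85.6% of its exon bases lie under other genes, where unstranded counting loses reads. The sums of the 4 endothelial markers were 1.29 to 2.40 and 4.15 to 6.07 CPM, and those of the 4 fibroblast markers 15.8 to 23.4 and 28.4 to 39.9, with KDR and LUM at 2 counts each over all samples. Of the endothelial markers CDH5 and PECAM1 rose (log2 fold change 2.48, adjusted p = 0.000255, and 0.72, adjusted p = 0.00519) and VWF was not called, and of the fibroblast markers DCN and COL1A1 rose (2.36, adjusted p = 0.000201, and 0.78, adjusted p = 0.000108). No marker was at 0 in all samples. The part of these marker changes in the results below was not tested.

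Promoter sequences were taken from RefSeq (build GRCh38.p14), which gave a window of 300 bases, 250 before and 50 after the transcription start, for 37 of the 45 members. GBP2, IFIT2, OAS2, OASL, USP18, MX2, DHX58 and IFITM2 had none. The ISRE core was searched as GAAA, any 2 bases and GAAA again, on either strand, with overlapping matches counted. It was present for 26 of the 37 members (70.3%), beside 4.38% of 27305 genes with such a window. The core occurred for 10 of 15 members that rose, 7 of 8 that fell and 8 of 12 that were tested and not called, so that members of all 3 classes carried it. The GAS core TTCNNNGAA, which is its own reverse complement, was present for 11 of the 37 members (29.7%), beside 9.38% of all genes. A match is a run of letters and not a measured binding site. Stretches of 60 bases around the ISRE core are shown for members of the opposite directions, with the core in capitals. They lie at chr1:1013362-1013421 on the plus strand for ISG15, chr1:27672251-27672310 on the minus strand for IFI6, chr2:162318685-162318744 on the minus strand for IFIH1, chr12:112938414-112938473 on the plus strand for OAS3 and chr14:94110609-94110668 on the plus strand for IFI27. These 5 genes were higher in irradiated cells.
ISG15: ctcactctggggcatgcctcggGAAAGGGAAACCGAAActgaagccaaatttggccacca
IFI6: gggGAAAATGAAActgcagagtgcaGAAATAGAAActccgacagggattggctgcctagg
IFIH1: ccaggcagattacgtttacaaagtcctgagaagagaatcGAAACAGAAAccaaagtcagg
OAS3: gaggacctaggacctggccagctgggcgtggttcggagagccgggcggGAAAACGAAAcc
IFI27: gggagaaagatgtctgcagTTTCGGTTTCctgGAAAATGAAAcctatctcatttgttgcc

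The next 5 genes were lower in irradiated cells, and their stretches lie at chr10:89392488-89392547 on the plus strand for IFIT1, chr10:89327833-89327892 on the plus strand for IFIT3, chr11:313975-314034 on the plus strand for IFITM1, chr11:320870-320929 on the minus strand for IFITM3 and chr19:17405723-17405782 on the minus strand for BST2. In ISG15 and in BST2 a pair of cores overlap, which gives the longer run of capitals. Some windows hold more cores than the stretch shows, with 3 in all for IFI6 and IFIH1 and 2 for OAS3 and IFITM1. A further window of IFIT3, not shown, holds 2 cores.
IFIT1: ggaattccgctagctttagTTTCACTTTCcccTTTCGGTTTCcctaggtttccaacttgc
IFIT3: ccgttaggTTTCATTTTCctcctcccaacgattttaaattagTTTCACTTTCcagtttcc
IFITM1: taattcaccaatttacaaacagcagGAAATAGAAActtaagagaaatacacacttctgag
IFITM3: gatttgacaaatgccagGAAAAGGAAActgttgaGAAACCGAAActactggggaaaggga
BST2: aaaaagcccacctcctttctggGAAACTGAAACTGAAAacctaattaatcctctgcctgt

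PARP9 and DTX3L are transcribed away from each other and share 1 core, which lies in both windows. Neither gene was called. The stretch is shown on the strand of PARP9, where the core reads as its reverse complement, at chr3:122564307-122564366 on the minus strand.
PARP9: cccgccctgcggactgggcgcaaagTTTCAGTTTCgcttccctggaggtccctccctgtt

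The interferon-stimulated genes moved in both directions after irradiation. Of the 42 tested, 18 were higher (42.9%), 9 were lower (21.4%) and 15 did not pass the test. Over all genes tested, 46.6% were called, 23.9% higher and 22.7% lower. The median log2 fold change of the members was 0.22 and the median of its absolute size 0.46, beside -0.01 and 0.23 over all genes tested, and member values ran from -1.28 to 1.43. USP18, OAS1 and OAS2 rose more than 2-fold and IFITM1, IFITM2 and IFITM3 fell more than 2-fold, which is 3 members in each direction where 5.26% and 4.06% of all genes did so. All irradiated samples lay above all control samples for 13 members (14.6% of all genes) and below them for 5 (12.0% of all genes), and the groups overlapped for 24. With library size as the only scaling, 16 members were higher and 13 lower, while over all genes the counts went from 4550 higher and 4307 lower to 3609 and 5894. Without replicate 3, 20 members were higher and 10 lower.

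**Figure D1:**
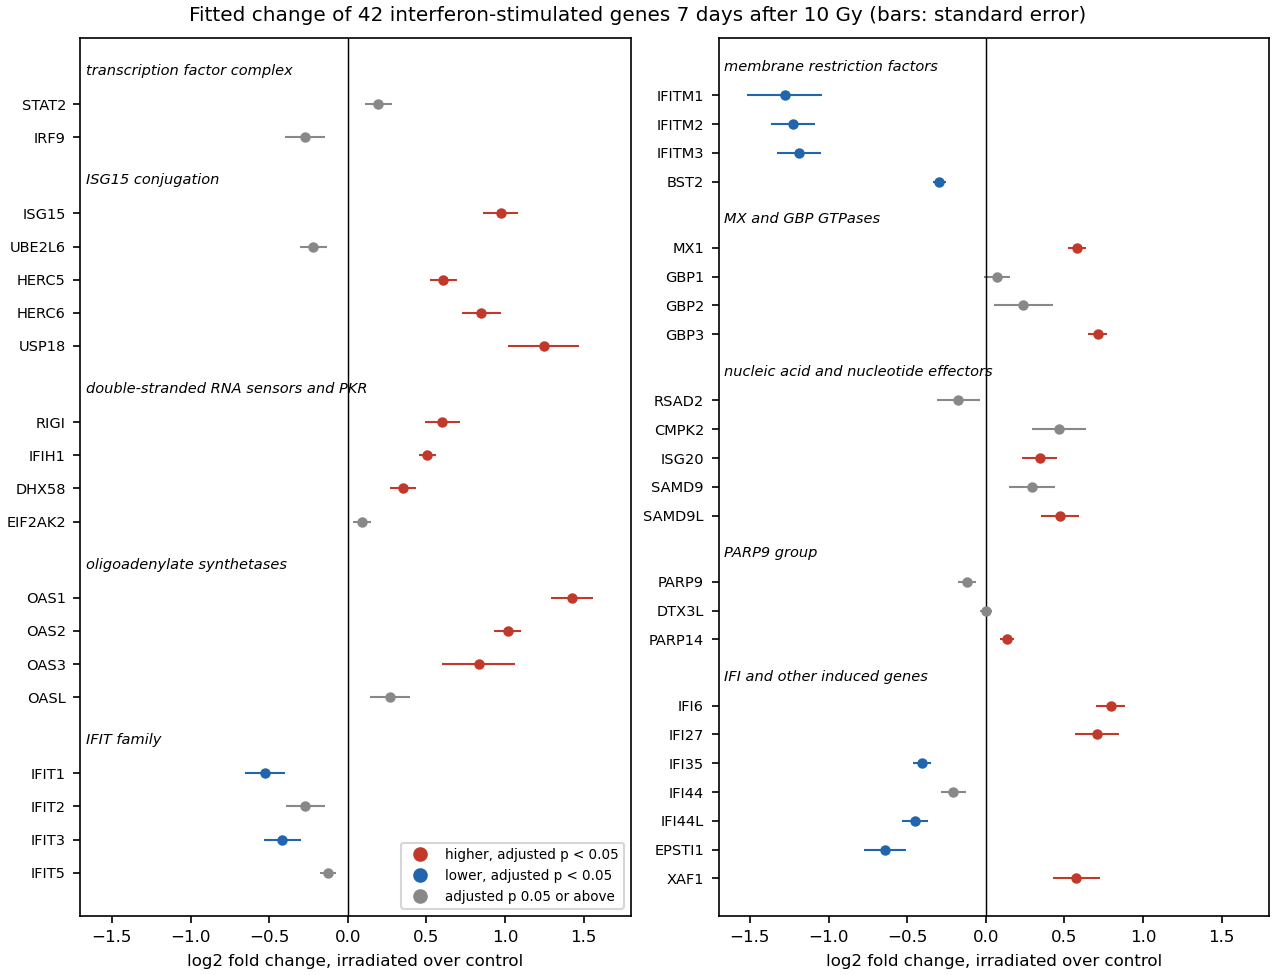
Fitted log2 fold change (irradiated over control, x axis) of the 42 tested interferon-stimulated genes with its standard error, grouped by role, with red for higher, blue for lower and grey for an adjusted p of 0.05 or above. The ISG15 conjugation, RNA sensor and oligoadenylate synthetase groups lie mostly to the right of 0, up to 1.43 for OAS1, while the 4 membrane restriction factors and the 4 IFIT genes lie to the left, down to -1.28 for IFITM1.

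The shares to set beside the counts of each role are those over all genes tested, 23.9% higher and 22.7% lower. By role, 4 of 5 genes of the ISG15 system rose. So did 3 of 4 genes for double-stranded RNA sensors and PKR and 3 of 4 oligoadenylate synthetase genes. None of the 4 IFIT genes rose and 2 fell, and all 4 genes of the membrane restriction group fell. The map of all 10 samples shows each of these genes in each sample.

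**Figure D2:**
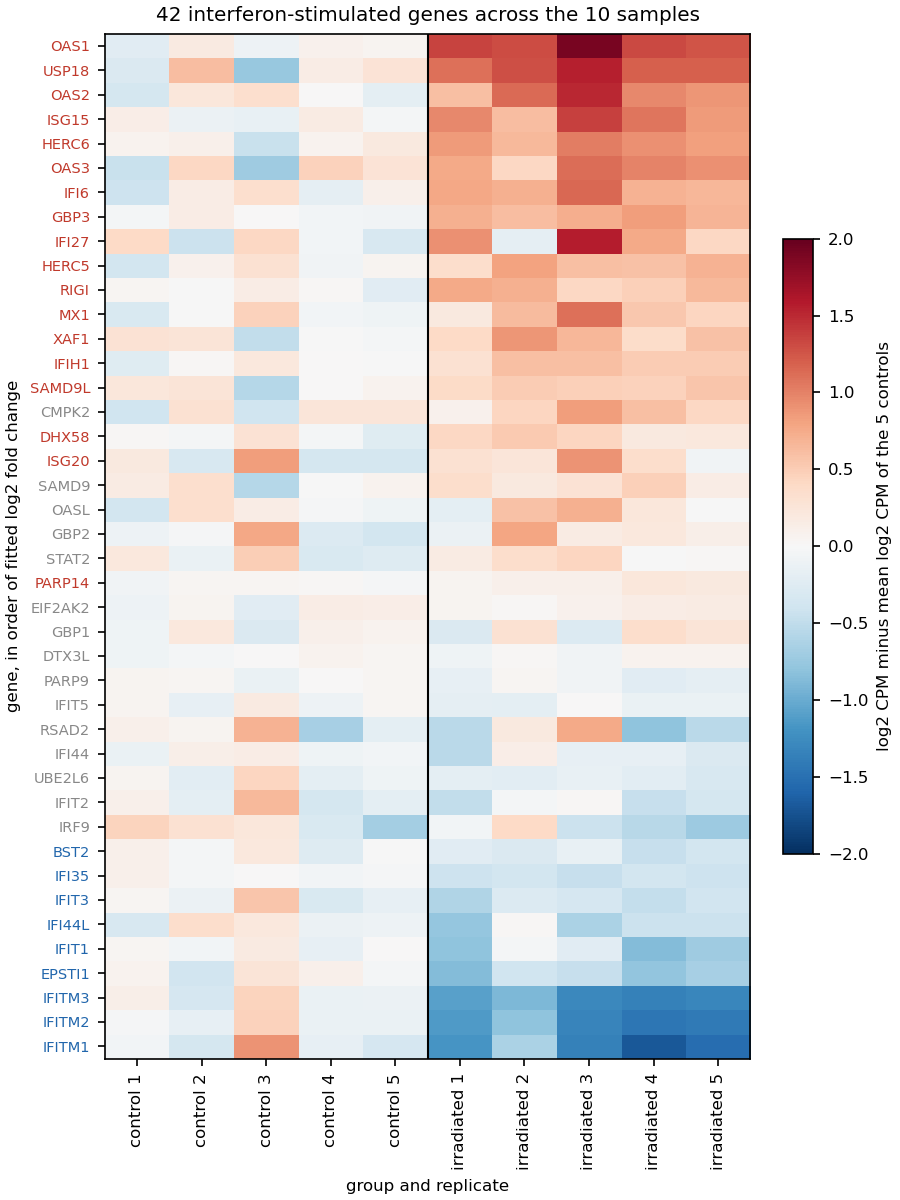
Log2 CPM of the 42 tested genes (rows, in order of fitted change, with names coloured red for higher, blue for lower and grey for not called) in the 10 samples (columns), as difference from the mean of the 5 controls, with red above and blue below it. OAS1, USP18 and OAS2 at the top are red in all 5 irradiated samples and IFITM1, IFITM2 and IFITM3 at the bottom are blue in all 5, and control replicate 3 differs from the other controls in both directions.

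STAT2 and IRF9, which are subunits of ISGF3, were not called. STAT2 expression was 163, 128, 198, 115 and 118 CPM in control replicates 1 to 5 and 159, 181, 189.9, 140.2 and 144 CPM in irradiated replicates 1 to 5. The groups overlapped over most of their range, and the log2 fold change was 0.19 (SE 0.08, adjusted p = 0.0962). Without replicate 3 it was 0.26, with an adjusted p of 0.0325. IRF9 was at 2.53 ± 0.76 CPM in control and 2.10 ± 0.70 CPM in irradiated samples (log2 fold change -0.27, adjusted p = 0.118), with 27.2% of its exon bases under other genes, where unstranded counting loses reads.

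Genes of the ISG15 system rose. ISG15 encodes a ubiquitin-like protein that is attached to other proteins, UBE2L6 is the E2 enzyme of that reaction, HERC5 its main ligase with HERC6 as a close relative, and USP18 removes ISG15 and also restrains signalling at the type I interferon receptor. ISG15 (chr1:1001138-1014540, plus strand) was at 10.8, 9.10, 8.92, 11 and 9.62 CPM in control replicates 1 to 5 and at 19.1, 15.2, 25.5, 20.6 and 17.8 CPM in irradiated replicates. All irradiated samples lay above all controls, with a log2 fold change of 0.97 (SE 0.11, adjusted p = 0.000392). USP18 (chr22:18150118-18177397, plus strand) went from 1.53, 2.86, 1.10, 2.05 and 2.26 CPM to 4.01, 4.52, 5.49, 4.27 and 4.24 CPM, a 2.37-fold rise (log2 1.25, SE 0.22, adjusted p = 0.003). The groups did not overlap, and control replicate 3 was the lowest and irradiated replicate 3 the highest sample. Without that pair the log2 fold change of USP18 was 0.997 and the adjusted p 0.000929.

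HERC5 and HERC6 are neighbours on chromosome 4. HERC6 was at 17.3, 17.7, 12, 17.2 and 18.9 CPM in controls and at 29.8, 25.8, 33.4, 30.9 and 29.0 CPM in irradiated samples. Its groups stood apart as well (log2 fold change 0.85, SE 0.13, adjusted p = 0.00127), and that of HERC5 was 0.61 (5.32 ± 0.88 and 8.07 ± 0.91 CPM, adjusted p = 0.000943). UBE2L6 did not share this direction. It was at 55.7 ± 10.9 CPM in control and 47.3 ± 2.0 CPM in irradiated samples (log2 fold change -0.22, adjusted p = 0.0656), and was lower in 4 of 5 pairs.

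**Figure D3:**
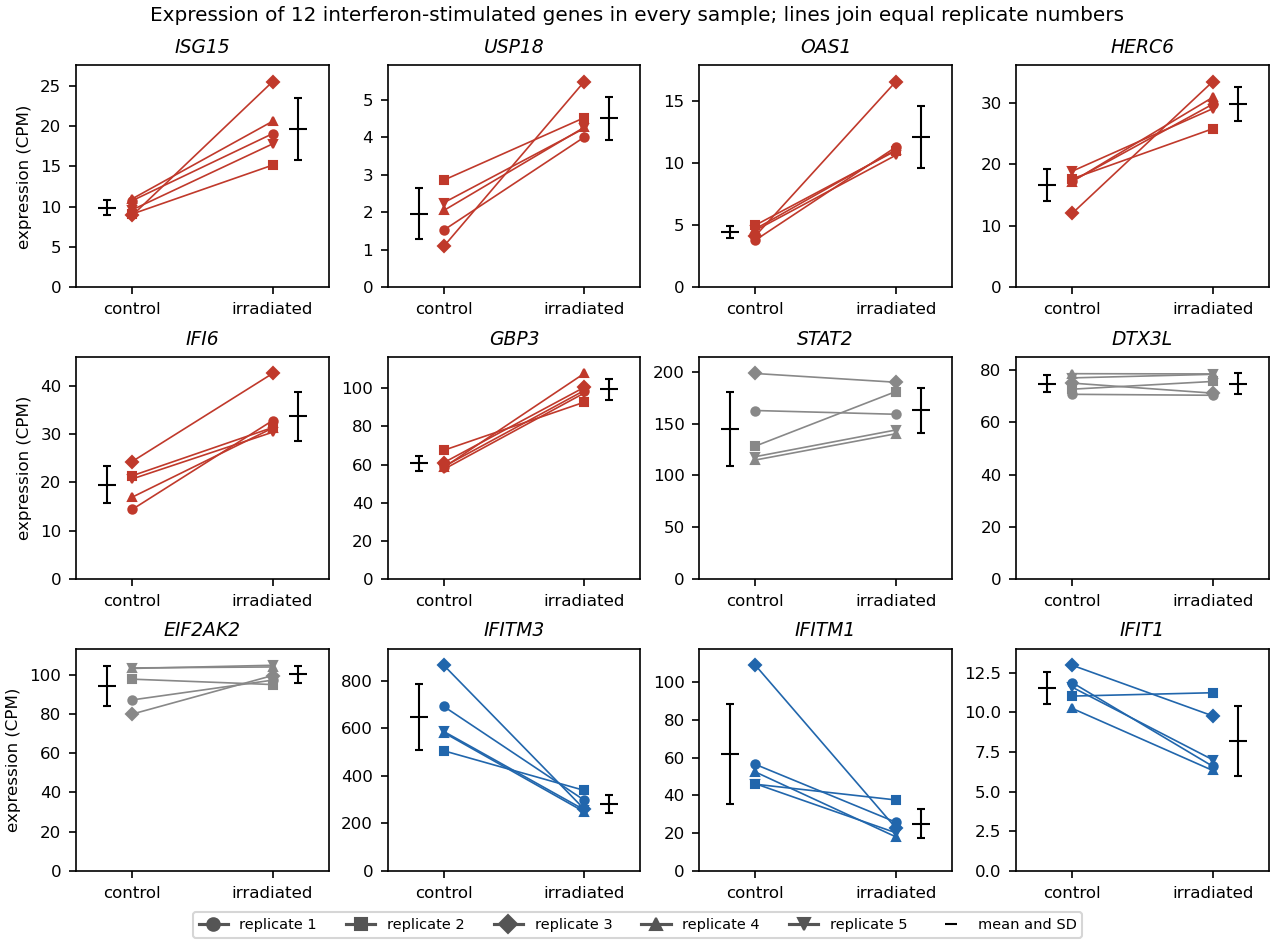
Expression in CPM (y axis, linear and starting at 0) of 12 interferon-stimulated genes in the 5 control and 5 irradiated samples, with lines joining samples of the same replicate number and black bars for mean and SD, coloured red for higher, grey for not called and blue for lower. OAS1 rises from 3.80 to 5.01 CPM in controls to 10.6 to 16.5 CPM in irradiated samples, DTX3L is level at 74.8 CPM in both groups, and IFITM3 falls from 506 to 865 CPM to 249 to 339 CPM.

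The cytosolic sensors of double-stranded RNA rose by smaller amounts. IFIH1 encodes MDA5 and RIGI encodes RIG-I, which start interferon production when they bind viral RNA, and DHX58 encodes their regulator LGP2. IFIH1 was at 11.3, 13.6, 15.5, 13.5 and 13.4 CPM in controls and at 16.6, 20.3, 20.4, 19.1 and 18.9 CPM in irradiated samples. Every irradiated sample exceeded every control (log2 fold change 0.51, SE 0.05, adjusted p = 0.000256). RIGI rose from 2.18 ± 0.20 to 3.30 ± 0.34 CPM (log2 fold change 0.60, adjusted p = 0.00351), a level that may be too low since 43.2% of its exon bases lie under other genes. DHX58 rose from 7.08 ± 0.97 to 9.01 ± 0.89 CPM (log2 fold change 0.35, adjusted p = 0.00967), in all 5 pairs, although the groups overlapped. EIF2AK2 encodes PKR, a kinase that stops translation when double-stranded RNA is bound. Its expression ran from 79.9 to 103 CPM in control and from 94.9 to 105 CPM in irradiated samples, and it was not called (log2 fold change 0.09, adjusted p = 0.23).

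Oligoadenylate synthetases make the small messenger that activates RNase L, and OAS1, OAS3 and OAS2 lie next to each other on chromosome 12. OAS1 (chr12:112905856-112933219, plus strand) had the largest fitted rise among the 42 tested members. It was at 3.80, 5.01, 4.15, 4.71 and 4.59 CPM in controls and at 11.3, 11, 16.5, 11.1 and 10.6 CPM in irradiated samples. The groups were far apart, and the fold change of 2.69 (log2 1.43, SE 0.13, adjusted p = 0.000151) was still 1.29 on the log2 scale without replicate 3. OAS2 went from 1.28, 1.92, 2.07, 1.64 and 1.43 CPM to 2.48, 3.60, 4.68, 3.20 and 3.04 CPM (log2 fold change 1.02, SE 0.09, adjusted p = 0.000104). Its groups did not overlap. OAS3 varied more in the controls, at 20.05, 36.2, 16.6, 37.7 and 33.0 CPM, and was at 46.3, 36.3, 59.3, 54.0 and 51.3 CPM in irradiated samples. The groups of OAS3 overlapped through control replicate 4 and irradiated replicate 2, the rise held in all 5 pairs (log2 fold change 0.83, SE 0.23, adjusted p = 0.0211), and the log2 fold change was 0.59 without replicate 3. Without replicate 1 the adjusted p of OAS3 was 0.08. OASL, a relative without synthetase activity that lies elsewhere on chromosome 12, was at 0.576 ± 0.103 and 0.701 ± 0.185 CPM and was not called (log2 fold change 0.27, adjusted p = 0.113).

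IFIT proteins bind the ends of foreign RNA and hinder its translation. Of the 4 neighbouring IFIT genes on chromosome 10, 2 fell and none rose. IFIT1 was at 11.9, 11, 13.0, 10.2 and 11.6 CPM in controls and at 6.60, 11.2, 9.77, 6.34 and 7.01 CPM in irradiated samples. Irradiated replicates 1, 4 and 5 lay well below the controls, irradiated replicate 2 lay among them, and the log2 fold change was -0.53 (SE 0.13, adjusted p = 0.0114). Without replicate 5 its adjusted p was 0.051. IFIT3 was at 22.2, 19.8, 31.5, 17.3 and 19.1 CPM in controls and at 14.1, 17.8, 17.0, 15.5 and 16.5 CPM in irradiated samples. It was lower in all 5 pairs with overlapping groups (log2 fold change -0.42, SE 0.12, adjusted p = 0.0226), and its high value in control replicate 3 left a log2 fold change of -0.29 when that pair was left out. The adjusted p of IFIT3 was 0.0835 without replicate 1. IFIT2 was at 9.73 ± 2.99 and 7.91 ± 1.35 CPM (log2 fold change -0.27, adjusted p = 0.113) and IFIT5 at 24.2 ± 2.2 and 22.1 ± 1.2 CPM (log2 fold change -0.13, adjusted p = 0.0743). Neither was called.

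The membrane restriction factors fell, all 4 of them. IFITM1, IFITM2 and IFITM3 encode small membrane proteins that hinder the fusion of viruses with cellular membranes, and BST2 encodes tetherin, which holds newly formed virus at the cell surface. IFITM3 (chr11:319676-329475, minus strand) was at 692, 506, 865, 582 and 587 CPM in controls and at 298, 339, 261, 249 and 257 CPM in irradiated samples. The groups were well separated, with a log2 fold change of -1.19 (SE 0.14, adjusted p = 0.000441). IFITM2 (chr11:303655-309397, plus strand) went from 243, 219, 339, 224 and 224 CPM to 113, 141, 98.0, 90.6 and 92.0 CPM (log2 fold change -1.22, SE 0.14, adjusted p = 0.000389). IFITM1 (chr11:310041-315272, plus strand) went from 56.4, 45.9, 109, 52.4 and 46.1 CPM to 25.8, 37.6, 22.8, 18.1 and 20.2 CPM (log2 fold change -1.28, SE 0.24, adjusted p = 0.00371). In all 3 genes control replicate 3 was the highest control and irradiated replicate 2 the highest irradiated sample, and no group overlapped with the other. Without replicate 3 the log2 fold changes of IFITM1, IFITM2 and IFITM3 were -1.03, -1.08 and -1.05. These genes are close in sequence, so that reads may be lost or shared between them and their separate values are uncertain. IFITM1 also has 31.6% of its exon bases under other genes.

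BST2 fell by less, from 129, 116, 138, 100.5 and 118 CPM to 102, 98.2, 108, 86.9 and 92.9 CPM. Its groups overlapped, but the decrease was present in all 5 pairs (log2 fold change -0.29, SE 0.04, adjusted p = 0.000939).

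Among the large GTPases, MX1 and GBP3 rose. MX1 encodes an inhibitor of viral ribonucleoproteins and the GBP genes encode guanylate-binding proteins that act on vacuoles holding pathogens. MX1 was at 8.86, 10.9, 15.1, 10.5 and 10.3 CPM in controls and at 12.6, 17.1, 23.4, 16.0 and 14.8 CPM in irradiated samples. Replicate 3 was the highest sample of both groups, so that the groups overlapped while every pair rose (log2 fold change 0.58, SE 0.05, adjusted p = 0.000158). GBP3 was at 59.0, 67.5, 61.0, 58.5 and 57.5 CPM in controls and at 98.7, 92.7, 100.4, 108 and 97.4 CPM in irradiated samples. This was a clear separation (log2 fold change 0.71, SE 0.06, adjusted p = 0.000108). Its neighbours on chromosome 1 were not called, with GBP1 at 9.23 ± 1.20 and 9.81 ± 2.08 CPM (log2 fold change 0.07, adjusted p = 0.496) and GBP2 at 16.9 ± 6.2 and 19.5 ± 5.0 CPM (log2 fold change 0.24, adjusted p = 0.332). GBP1 and GBP3 are close in sequence, and reads common to both may be lost. Without replicate 3, in which GBP2 was highest among the controls, the log2 fold change of GBP2 was 0.45 and its adjusted p 0.0219. MX2, which encodes a restriction factor of retroviruses, had 20 counts over the controls and 22 over the irradiated samples, a ratio of 1.37 after scaling for depth with a 95% exact interval of 0.716 to 2.66 that covers counting error only.

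Of the effectors that act on nucleic acids or nucleotides, SAMD9L and ISG20 rose. SAMD9L, which restricts poxviruses, was at 12.9, 13.2, 7.45, 11.1 and 11.6 CPM in controls and at 14.4, 15.7, 15.3, 15.2 and 16.2 CPM in irradiated samples. The groups did not overlap, and control replicate 3 was by far the lowest (log2 fold change 0.47, SE 0.12, adjusted p = 0.0155). Without replicate 5 its adjusted p was 0.0508. Its neighbour SAMD9 was at 3.97 ± 0.85 and 4.78 ± 0.45 CPM (log2 fold change 0.29, adjusted p = 0.135). ISG20 encodes an exonuclease of single-stranded RNA and was at 4.87 ± 2.0 and 6.0 ± 1.6 CPM, higher in all 5 pairs (log2 fold change 0.34, SE 0.11, adjusted p = 0.0394). That call was lost in 7 of 11 alternatives, and with no replicate block the adjusted p was 0.379. RSAD2 encodes viperin, which makes a chain-terminating nucleotide, and CMPK2 encodes the mitochondrial nucleotide kinase next to it on chromosome 2. RSAD2 was at 1.44 ± 0.50 and 1.32 ± 0.64 CPM (log2 fold change -0.18, adjusted p = 0.324) and CMPK2 at 0.957 ± 0.227 and 1.32 ± 0.25 CPM (log2 fold change 0.47, adjusted p = 0.0593, higher in all 5 pairs). Neither passed the test.

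PARP9, its partner DTX3L and the mono-ADP-ribosyltransferase PARP14 lie together on chromosome 3 and differed little between the groups. DTX3L was at 70.7, 72.6, 75.0, 78.6 and 77 CPM in controls and at 70.3, 75.6, 71.1, 78.5 and 78.3 CPM in irradiated samples. The groups lay on top of each other, with a log2 fold change of -0.00 (SE 0.04). PARP9 was at 58.6 ± 3.0 and 54.0 ± 4.0 CPM (log2 fold change -0.12, adjusted p = 0.131). PARP14 rose from a range of 114 to 123 CPM to a range of 124 to 140.4 CPM (log2 fold change 0.14, SE 0.04, adjusted p = 0.0359), the smallest change of any member called, and that call was lost in 8 of 11 alternatives.

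The remaining tested members, the IFI genes with EPSTI1 and XAF1, split evenly, with 3 higher, 3 lower and 1 not called. IFI6 and IFI27 encode small hydrophobic proteins of the endoplasmic reticulum and mitochondria. IFI6 was at 14.4, 21.4, 24.3, 16.9 and 20.7 CPM in controls and at 32.8, 31.3, 42.5, 31.2 and 30.4 CPM in irradiated samples. Its groups stood apart, with replicate 3 the highest of each (log2 fold change 0.79, SE 0.09, adjusted p = 0.000454). The level of IFI6 may be too low, since 23.1% of its exon bases lie under another gene. IFI27 was at 1.74, 0.973, 1.74, 1.26 and 1.05 CPM in controls and at 2.46, 1.16, 3.91, 2.21 and 1.75 CPM in irradiated samples. Every pair rose although the groups overlapped (log2 fold change 0.71, SE 0.14, adjusted p = 0.0045), and with no replicate block the adjusted p was 0.0566. XAF1 encodes an antagonist of an inhibitor of apoptosis and rose from 1.53 ± 0.31 to 2.27 ± 0.35 CPM (log2 fold change 0.58, adjusted p = 0.0161). Without replicate 5 its adjusted p was 0.0539, and 38.3% of its exon bases lie under other genes.

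EPSTI1, IFI35 and IFI44L fell. EPSTI1 was at 10.5, 7.68, 12, 10.8 and 9.79 CPM in controls and at 5.53, 7.60, 7.28, 5.79 and 6.33 CPM in irradiated samples. The lowest control, replicate 2, was just above the highest irradiated sample, also replicate 2 (log2 fold change -0.64, SE 0.13, adjusted p = 0.00622). IFI35 was at 18.1, 16.4, 16.9, 16.1 and 16.5 CPM in controls and at 12.5, 13.0, 12.1, 13.0 and 12.6 CPM in irradiated samples. Both groups were tight and separate (log2 fold change -0.41, SE 0.06, adjusted p = 0.00103). IFI44L fell from 29.8 ± 5.6 to 21.9 ± 4.9 CPM in all 5 pairs with overlapping groups (log2 fold change -0.45, adjusted p = 0.00362), and its neighbour on chromosome 1, IFI44, was at 11.3 ± 1.0 and 9.86 ± 1.65 CPM (log2 fold change -0.21, adjusted p = 0.061).

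CXCL10 and CXCL11 encode chemokines that draw T cells through the receptor CXCR3 and lie next to each other on chromosome 4. Both were close to absent. CXCL10 had 1 count over all controls and 13 over the irradiated samples, a ratio of 16.2 after scaling for depth (95% exact interval 2.44 to 690.5). CXCL11 had 1 count over all controls and 27 over the irradiated samples, a ratio of 33.7 (95% exact interval 5.56 to 1382). Each of the 5 irradiated samples held at least 1 count of both, whereas 4 of the 5 controls held 0. When every gene with at least 1 count was tested, the adjusted p was 0.0548 for CXCL10 and 0.0024 for CXCL11. The intervals cover counting error only, and reads carried no molecular identifiers.

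Expression per kb of the canonical transcript placed the members over a wide range. IFITM3 was the most abundant, with a level of 1058 CPM per kb in control and 460 in irradiated samples, followed by IFITM2 (248 and 106) and BST2 (120.1 and 97.7). Among the 45 members OAS1 moved from rank 29 with a level of 2.73 CPM per kb in controls to rank 17 with 7.42 in irradiated samples, and IFI6 from rank 7 (24.1) to rank 4 (41.4). The members that fell thus included the 4 highest levels in the controls, IFITM3, IFITM2, BST2 and IFITM1, and the first 3 kept their ranks in irradiated samples. The coefficient of variation of a tested member among replicates had a median of 19.2% in controls, from 3.31% to 42.9%, and of 14.4% in irradiated samples, from 2.94% to 48.8%. Irradiated replicate 3 was the highest irradiated sample for 11 of the 18 members that rose, and irradiated replicate 2 for 7 of the 9 that fell.

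Another 90 genes of the interferon pathway were read from lists with the members left out. Of these, 77 were tested, 32 were higher, 15 were lower and 30 were not called, so that 61.0% were called beside 64.3% of the tested members and 46.6% of all genes tested. Higher were 41.6% of them and lower 19.5%, beside 23.9% and 22.7% of all genes tested, which are also the shares to set beside the counts of each list. The interferons themselves were scarce. Of 10 ligand genes 8 were under the count minimum, including IFNB1 with 3 counts over the controls and 4 over the irradiated samples (ratio 1.67, 95% exact interval 0.282 to 11.4), and neither tested ligand was called. IFNE, an epithelial type I interferon, was at 2.91 ± 0.51 and 2.94 ± 0.57 CPM (log2 fold change 0.01, adjusted p = 0.947). IFNA1 was at 0.382 ± 0.074 and 0.320 ± 0.056 CPM (log2 fold change -0.24, adjusted p = 0.352). These values are uncertain, since 63.4% of its exon bases lie under another gene.

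Receptor and JAK-STAT genes rose in 6 of 10 cases and fell in none. The kinase gene JAK1 rose from 270.4 ± 27.2 to 408 ± 35 CPM (log2 fold change 0.60, adjusted p = 0.00103), the type II receptor gene IFNGR1 from 39.7 ± 4.2 to 55.1 ± 2.9 CPM (0.48, adjusted p = 0.000481) and the type I receptor gene IFNAR1 from 75.1 ± 6.5 to 96.9 ± 4.6 CPM (0.37, adjusted p = 0.00033). IFNAR2, which encodes the other chain of that receptor, was not called at 0.854 ± 0.103 and 1.13 ± 0.21 CPM (0.39, adjusted p = 0.0524). That level may be too low, since 27.7% of the exon bases of IFNAR2 lie under other genes.

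**Figure D4:**
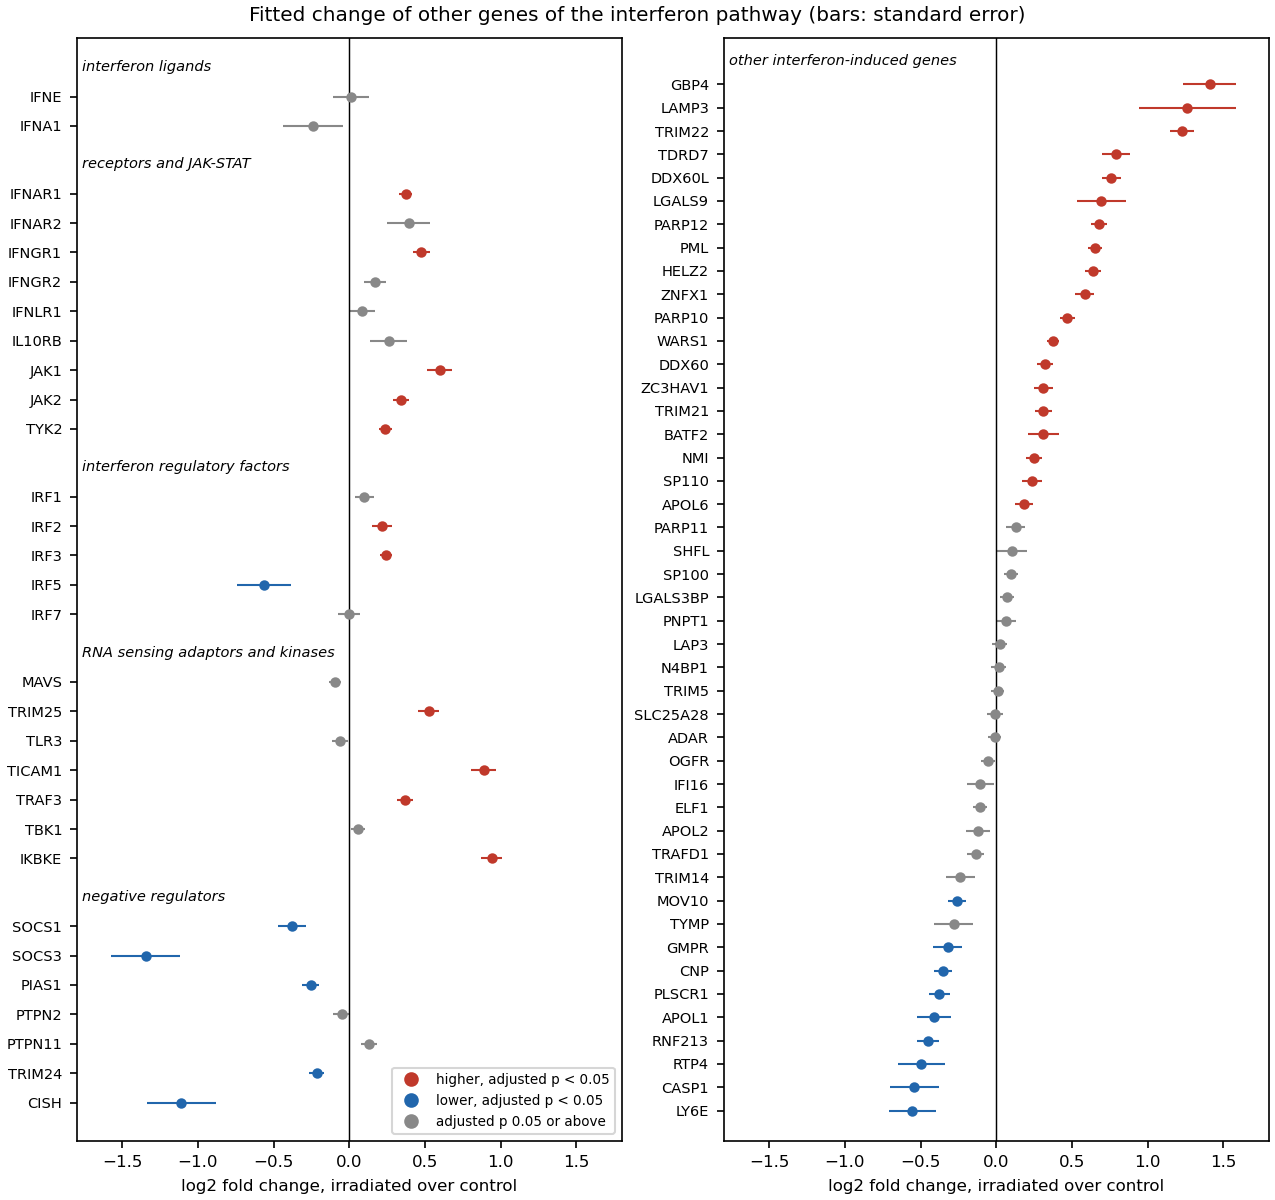
Fitted log2 fold change (irradiated over control, x axis) with its standard error for the other genes of the interferon pathway reported here, in 5 lists by role on the left and as other interferon-induced genes in order of change on the right, with red for higher, blue for lower and grey for not called. Receptor and JAK-STAT genes and adaptors of RNA sensing lie at or to the right of 0 except MAVS (-0.09) and TLR3 (-0.06), and SOCS3 (-1.34) and CISH (-1.11) lie furthest to the left.

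Of 6 interferon regulatory factor genes 3 were higher and 1 lower. IRF3, which is activated downstream of RNA sensing, rose (log2 fold change 0.24, adjusted p = 0.00213), as did IRF2 (0.22, adjusted p = 0.0297). IRF5 fell, from 23.4, 19.0, 37.0, 13.1 and 14.8 CPM to 14.9, 16.1, 13.5, 11.3 and 12.2 CPM. Its groups overlapped and control replicate 3 was the highest (log2 fold change -0.56, adjusted p = 0.0333), and without that pair the log2 fold change was -0.34. IRF1 was not called (0.10, adjusted p = 0.232). In the RNA sensing list 4 of 7 tested genes rose and none fell. The kinase gene IKBKE rose from 11.4, 12.5, 8.68, 11.9 and 11.7 CPM to 20.2, 20.7, 18.3, 25.0 and 23.5 CPM, and the adaptor gene TICAM1 from 21.8, 21.8, 22.3, 21.2 and 20.8 CPM to 41.6, 30.7, 43.6, 45 and 40.4 CPM. Both were separated (log2 fold change 0.94, adjusted p = 5.91e-05, and 0.89, adjusted p = 0.000161). TRIM25, the ligase gene that supports RIG-I, and TRAF3 rose by 0.52 and 0.37 on the log2 scale (adjusted p = 0.000705 and 0.00121), while MAVS, the mitochondrial adaptor on which RIG-I and MDA5 act, was at 274 ± 15 and 257 ± 10 CPM and was not called (-0.09, adjusted p = 0.101).

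In the list of negative regulators 5 of 7 genes fell and none rose. USP18, which also restrains signalling, is a member and so not in this list, and it rose (log2 fold change 1.25, adjusted p = 0.003). SOCS3, a feedback inhibitor of JAK kinases, was at 102, 64.3, 164, 88.9 and 86.8 CPM in controls and at 39.8, 45.4, 31.4, 37.2 and 36.7 CPM in irradiated samples. No control was as low as an irradiated sample (log2 fold change -1.34, SE 0.23, adjusted p = 0.00224), and the log2 fold change was -1.08 without replicate 3. CISH, of the same family, fell with a log2 fold change of -1.11 (adjusted p = 0.00542) and -0.85 without replicate 3. SOCS1 (-0.38, adjusted p = 0.0112), PIAS1 (-0.25, adjusted p = 0.00896) and TRIM24 (-0.22, adjusted p = 0.00749) fell by less. PIAS1 has 32.7% of its exon bases under other genes. Of 45 other interferon-induced genes tested, 19 were higher (42.2%, beside 23.9% of all genes tested) and 9 were lower, a share near the 22.7% of all genes tested. The largest changes were rises of GBP4 (log2 fold change 1.41, adjusted p = 0.000561), LAMP3 (1.26, adjusted p = 0.0141), TRIM22 (1.23, adjusted p = 3.9e-05), TDRD7 (0.79, adjusted p = 0.000423) and DDX60L (0.76, adjusted p = 8.72e-05). TRIM22, an antiviral ubiquitin ligase gene, was at 71.3, 71.0, 72.6, 67.3 and 70.1 CPM in controls and at 145, 196, 143, 175 and 173 CPM in irradiated samples, with no overlap.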

How the data were processed

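RNA-seq libraries from 5 control and 5 irradiated RPTEC/TERT1 samples were examined. The authors trimmed adapters, aligned reads to GRCh38 with STAR and let STAR count them on GENCODE genes, and the deposited table holds raw counts, 1 column for each sample and 1 row for each gene. The annotation release was not given in the sources used here. Of 61587 identifiers, 61369 matched a symbol. The 46 rows for second copies on chromosome Y were no members.

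Among protein-coding genes covered wholly by opposite-strand exons, 13 of 13 had 0 counts, beside 9.28% of 10506 without overlap, so the counts were taken as unstranded. Overlap, coordinates and canonical transcript lengths came from GENCODE 44 on GRCh38, promoters from RefSeq.

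The main test was run with edgeR 4.0.16 under R 4.3.3 (TMM, glmQLFit, glmQLFTest) on genes with at least 200 counts, with replicate number as a block, as in the study's model, and a Benjamini-Hochberg threshold of 0.05. Deviations from group means correlated at 0.22 to 0.51 for equal replicate numbers and at -0.35 to 0.32 for different ones. These ranges overlap, so that the pairing rests on the replicate numbers in the labels. Between replicates of a group, chi-square per gene was 8.53 to 214, above sampling noise. This spread was uneven. Comparing replicate 4 with replicate 5 gave 15.2 for control and 8.53 for irradiated samples. All other comparisons gave 57.3 to 214 for control and 40.5 to 88.9 for irradiated samples. The model treats every replicate number as an equally independent block, which was not tested, so that the p-values may be too small. Standard errors are the log2 fold change over the square root of the F statistic. Beside ratios of summed counts, 95% exact conditional intervals are given.

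Every member is named. From each of the 6 pathway lists the 5 tested genes with the largest absolute change are named, and any other gene was picked after its values were seen. Results of some genes in these lists are not reported here, though the counts include them. The members and lists were chosen with earlier results of these data known. Alternatives were DESeq2 1.42.0, library size only, upper-quartile factors, a minimum of 1 count, filterByExpr, no replicate block and each pair left out. The test was checked on simulated data. These held independent samples with no replicate effect and 200 changed genes, so that the check does not cover the replicate block or samples that are alike. Python 3.11.15 and matplotlib 3.10.9 were used for figures.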

Additional observations from a re-analysis of the deposited data

Results flagged for a closer look

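Values were examined in 138 groups of 5 samples, the control and irradiated groups of the tested members and named pathway genes, for a lowest or highest sample far from the others of its group. Of these, 10 stood out, where chance gives about 1 in 20 groups, or 6.9. Control replicate 3 held 7 of them, irradiated replicate 3 held 2 and irradiated replicate 2 held 1.

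In control replicate 3, IFITM1 was at 108.8 CPM where the other controls lay between 45.9 and 56.4, IFITM2 at 339.1 against 219.0 to 242.9, GBP2 at 27.7 against 12.6 to 15.8 and IRF2 at 30.8 against 24.5 to 26.0. The same sample was low for HERC6 at 12 CPM against 17.2 to 18.9, PARP9 at 53.4 against 58.9 to 60.8 and IKBKE at 8.68 against 11.4 to 12.5.

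Irradiated replicate 3 was high for OAS1 at 16.5 CPM against 10.6 to 11.3 in the other irradiated samples and for IFI6 at 42.5 against 30.4 to 32.8. Irradiated replicate 2 was low for IFNA1 at 0.224 CPM against 0.333 to 0.373.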

How the results depend on the processing

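Across the 11 alternatives the members called higher numbered 13 to 20 (18 as reported), those called lower 8 to 13 (9 as reported), and the median log2 fold change of the tested members 0.14 to 0.27 (0.22 as reported). No called gene changed direction. With no replicate block the counts were 15 and 9, and IFI27, ISG20 and PARP14 were no longer called. Leaving out 1 pair in turn gave 13 to 20 higher and 8 to 12 lower, and among pathway genes 28 to 35 higher (32 as reported) and 8 to 15 lower (15 as reported), with 9 without replicate 1 and 8 without replicate 5. The cause was not tested. Without replicate 5, 6 members lost their call, OAS3, ISG20, PARP14, SAMD9L, XAF1 and IFIT1. Over members and alternatives, 424 calls stayed as reported, 22 were lost and 16 were gained. Over named pathway genes the counts were 281, 12 and 4. UBE2L6 was called lower in 5 alternatives. Over all genes, calls with no replicate block were 3640 higher and 3366 lower. The 3 members and 13 pathway genes under the count minimum were left out of the main test, and why their counts were low was not tested. For the others the spread between replicates limits precision.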
